A study of Mus musculus with 12 samples.

Results

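The effect of a cardiac gene-activation transgene was examined in mouse hearts that had all received the same guide vector. The comparison set TG_AAV against WT_AAV, with 3 libraries in each, which are 6 of the 12 libraries of the series. Genes entered the test when their mean normalized count over these 6 libraries was 10 or more, and 13027 of the 24390 genes in the deposited table did so. TG_AAV hearts carried Myh6-dCas9VPR, a nuclease-dead Cas9 joined to the VPR activation domains and made from the heart muscle promoter of Myh6, and their mice had received an AAV9 vector named TRISPR Mef2d. WT_AAV hearts were wild-type and had received that vector too, so every heart of this comparison carried the vector and the groups differed in the transgene. The series also held TG_saline hearts (transgene, saline) and WT_saline hearts (wild-type, saline), which served to measure the transgene without the vector. Every sample was total RNA from the cardiac ventricles of C57BL/6 mice at 8 weeks of age. The Myh6 promoter drives the activator in heart muscle cells, whereas the ventricle samples held every cell type of the tissue. Whether a group's samples came from separate animals is not stated in the labels. The sex-linked genes Xist and Ddx3y, given below, differed between libraries of each group, so its libraries were not all from the same animal. The p-values reflect only how these samples spread, part of which may be technical.

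A nuclease-dead Cas9 still binds the DNA that its guide RNA matches but cannot cut it, and when it carries strong activation domains it can raise transcription of the gene whose promoter it sits on. Mef2d encodes a MADS-box transcription factor of the MEF2 family, which binds AT-rich elements in muscle genes and is held in check by class IIa histone deacetylases. In adult heart muscle, MEF2 activity is known for its links to stress signalling, to the return of fetal genes and to the control of energy metabolism.

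The TG_AAV libraries held 10966788 to 14911986 gene reads, and the WT_AAV libraries 10476612 to 11924301. Values are the authors' normalized counts, which are read counts per gene divided by a size factor per library. No library was a copy of another, since the chi-square divided by its degrees of freedom between pairs of a group was 5.18 to 8.08 in TG_AAV and 13.0 to 23.45 in WT_AAV. Some libraries stood apart within their group. The atrial light chain Myl7 had 1505, 6.97 and 19.1 in the TG_AAV libraries and 2042, 3.04 and 1693 in the WT_AAV libraries, so that TG_AAV 1, WT_AAV 1 and WT_AAV 3 held atrial transcripts and the other 3 libraries hardly any. The wild-type libraries WT_AAV 2, WT_AAV 3 and WT_saline 3 differed in Mef2a, with 3253, 3051 and 3343 normalized counts, against 4059 to 4384 in the other 3 wild-type libraries. Over all tested genes they did not lie together. On the first 2 principal components WT_AAV 2 (17.4 and 9.22) lay nearer to WT_AAV 1 (13.0 and 10.1) than to WT_AAV 3 (23.0 and -30.3). Xist was high in TG_AAV 3 and WT_AAV 3 (7415 and 16834) and low in the other 4 libraries, so that each of these 2 groups had 1 such library. Ddx3y was at 0 in TG_AAV 3 and WT_AAV 3 and at 1468 to 1908 in the other 4. The saline groups were not balanced in this way, since Xist was high in TG_saline 1 and in WT_saline 1 and 3. Results were therefore also taken without the 3 atrial-rich libraries. They were also taken without WT_AAV 2, WT_AAV 3 and WT_saline 3, called the 3 wild-type libraries below. Each of these omissions leaves 1 WT_AAV library, which is then assumed to vary like the other groups.

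Mef2d, the gene named with the vector, was higher in every TG_AAV heart than in any WT_AAV heart. Mef2d stood at 1989, 2231 and 1897 in TG_AAV, against 973, 1131 and 1102 in WT_AAV, in normalized counts. The means were 2039 ± 173 in TG_AAV, against 1069 ± 84.3 in WT_AAV (SD, n = 3 each), a ratio of 1.91. Mef2d rose by 0.93 (SE 0.11, adjusted p = 0.000109) on the log2 scale, tested with limma and, like every adjusted p-value given here, adjusted across all 13027 genes by Benjamini and Hochberg's method. The exact two-sided permutation test of the 3 against 3 values gave p = 0.1, the smallest that this design allows. In the saline-injected hearts the same transgene went with no rise, since Mef2d had 833, 844 and 839 in TG_saline, against 999, 877 and 1178 in WT_saline.

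The stretch before the transcription start of Mef2d is shown because it is the kind of region that a dCas9 activator is directed to, beside the same stretch of Ryr1 and Gpc4, a pair of the genes that rose most in these hearts. The guide sequences of the vector are not among the files used here. Each line gives the 250 bases before the start, 5′ to 3′, from RefSeq on GRCm38.p6, with CG dinucleotides in capitals.
Mef2d (chr3:88142122-88142371, plus strand): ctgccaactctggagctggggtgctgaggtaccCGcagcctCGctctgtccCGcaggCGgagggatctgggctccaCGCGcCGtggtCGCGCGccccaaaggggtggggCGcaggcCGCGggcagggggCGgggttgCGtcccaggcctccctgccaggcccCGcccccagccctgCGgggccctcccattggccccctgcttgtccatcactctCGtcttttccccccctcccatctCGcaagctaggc
Ryr1 (chr7:29125152-29125401, minus strand): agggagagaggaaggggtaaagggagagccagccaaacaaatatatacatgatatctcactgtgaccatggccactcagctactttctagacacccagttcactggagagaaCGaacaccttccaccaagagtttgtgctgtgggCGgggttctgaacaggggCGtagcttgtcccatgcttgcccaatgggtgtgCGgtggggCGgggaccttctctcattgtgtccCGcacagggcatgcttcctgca
Gpc4 (chrX:52164924-52165173, minus strand): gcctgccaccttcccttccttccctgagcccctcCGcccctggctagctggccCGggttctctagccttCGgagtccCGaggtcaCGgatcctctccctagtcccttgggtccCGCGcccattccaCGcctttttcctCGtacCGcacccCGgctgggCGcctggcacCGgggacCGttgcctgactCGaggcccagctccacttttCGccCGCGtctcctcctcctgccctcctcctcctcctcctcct
The Mef2d stretch holds 19 CG dinucleotides, that of Gpc4 holds 18 and that of Ryr1 holds 6.

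Genes beside Mef2d on the chromosome were measured too, since an activator can act beyond its target. Within 100 kb of Mef2d, 3 other genes passed the filter. Apoa1bp, which encodes an NAD(P)HX epimerase, had 484, 517 and 505 in TG_AAV, against 413, 375 and 335 in WT_AAV and rose by 0.43 (SE 0.09, adjusted p = 0.00537), a call lost without the atrial-rich libraries (adjusted p = 0.063) and without the 3 wild-type libraries (0.0708). Gpatch4, which encodes a G-patch domain protein, had 71.5, 74.7 and 88.3 in TG_AAV, against 70.1, 71.0 and 70.7 in WT_AAV, a log2 change of 0.14 that did not pass (adjusted p = 0.555). Iqgap3, a scaffold protein of dividing cells, had 27.7, 30.9 and 27.1 in TG_AAV, against 13.8, 12.2 and 13.9 in WT_AAV and passed with a log2 change of 1.05 (SE 0.31, adjusted p = 0.0309). The Iqgap3 call did not outlast the loss of any 1 of the 6 libraries, with adjusted p of 0.0783, 0.0947 and 0.075 without TG_AAV 1, 2 and 3 and 0.0501, 0.0859 and 0.0561 without WT_AAV 1, 2 and 3. Ttc24, Rhbg and 1700113A16Rik lay below the filter.

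Across the transcriptome 2473 of the 13027 genes differed between TG_AAV and WT_AAV hearts, or 19.0%. Of these, 1403 (10.8%) were higher and 1070 (8.21%) were lower in TG_AAV hearts. Most changes were modest, with 1968 of the 2473 within 2-fold. Beyond 4-fold, 77 genes were higher and 29 lower. Among the 1928 genes with a mean of 1000 or more, 233 were higher and 292 lower. The 3 TG_AAV values and the 3 WT_AAV values did not overlap for 4964 genes, or 38.1%, of which 2448 were among the genes called. Genes named below for the largest changes were picked from those 2448, so their lack of overlap was fixed by that choice. The number called was 1549, 1614 and 1455 without TG_AAV 1, 2 and 3, and 713 without the 3 atrial-rich libraries, of which 653 were among the 2473. With a term for the log2 level of Myl7 in the fit, which keeps every library, 2129 genes were called, of which 2079 were among the 2473. Scaling by total reads shifted the median gene by 0.143 on the log2 scale and split the calls into 2940 higher and 628 lower.

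**Figure D1:**
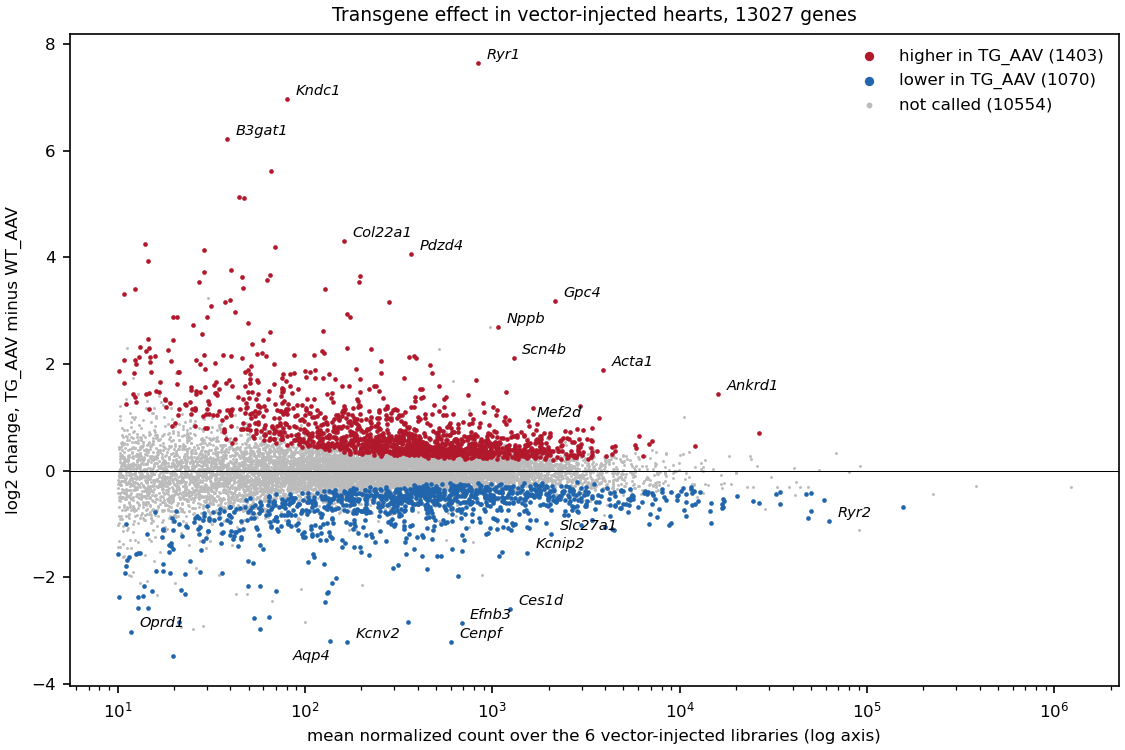
Log2 change of each gene in TG_AAV minus WT_AAV hearts (vertical) against its mean normalized count over the 6 libraries (horizontal, log axis), red where higher and blue where lower past the threshold. The 1403 higher genes reach further from 0 than the 1070 lower ones, and among genes with a mean above 1000 the lower genes are the more numerous.

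Most of the genes that rose most had few reads in WT_AAV hearts, and several are known from skeletal muscle or brain rather than from ventricle. Ryr1, which encodes the channel that releases calcium in skeletal muscle, had 1995, 1593 and 1442 in TG_AAV, against 8.05, 11.2 and 4.29 in WT_AAV. The reads of the 3 libraries summed to 6146 in TG_AAV and 22 in WT_AAV, a ratio of 214.5 once scaled for depth (95% exact counting interval 141.5 to 342.5), and the log2 change was 7.64 (SE 0.40, adjusted p = 1.62e-07). Pdzd4, a PDZ domain protein, had 702, 687 and 708 in TG_AAV, against 43.7, 38.6 and 40.7 in WT_AAV and rose by 4.06 (SE 0.16, adjusted p = 1.10e-08). In both genes the 3 TG_AAV hearts lay close together and far above all WT_AAV hearts. Col22a1, a collagen of muscle and tendon junctions, had 314, 306 and 303 in TG_AAV, against 11.5, 19.3 and 13.9 in WT_AAV, a log2 change of 4.31 (SE 0.31, adjusted p = 3.52e-06). Counting intervals here cover counting error only.

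Kndc1, a guanine nucleotide exchange factor known from neurons, had 123, 183 and 175 in TG_AAV, against 0, 0 and 1.07 in WT_AAV. It had 1 read in the WT_AAV libraries together and 572 in the TG_AAV libraries, a ratio of 439 with a wide counting interval of 78.5 to 17380. B3gat1, the glucuronyltransferase that makes the HNK-1 epitope of neural glycoproteins, had 47.4, 99.6 and 83.5 in TG_AAV, against 0, 0 and 0 in WT_AAV. Against a floor of 3 reads over the WT_AAV group it was at least 69.1-fold higher. Clstn3, a synaptic adhesion protein, had 135, 113 and 143 in TG_AAV, against 3.45, 0 and 3.21 in WT_AAV. Ccno, an atypical cyclin known from cells with many cilia, had 91.9, 53.8 and 130.5 in TG_AAV, against 0, 2.03 and 4.29 in WT_AAV. Their log2 changes were 6.96 for Kndc1, 6.22 for B3gat1, 5.62 for Clstn3 and 5.12 for Ccno, with adjusted p of 1.17e-05, 3.51e-05, 4.50e-05 and 0.000258. With so few WT_AAV reads these log2 values depend on the pseudocount of 1 and are no bounds.

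Further genes of this kind were Atp1b4, an orphan member of the sodium pump β subunit family (log2 change 5.13), and Itpka, an inositol trisphosphate kinase (4.20). Ddn, the postsynaptic protein dendrin, changed by 4.14, Jph3, the brain junctophilin, by 3.92, and Plekhg6, a guanine nucleotide exchange factor, by 4.24. Their adjusted p ran from 1.69e-05 for Itpka to 0.00128 for Plekhg6. The Plekhg6 call was lost without the atrial-rich libraries (adjusted p = 0.0856).

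**Figure D2:**
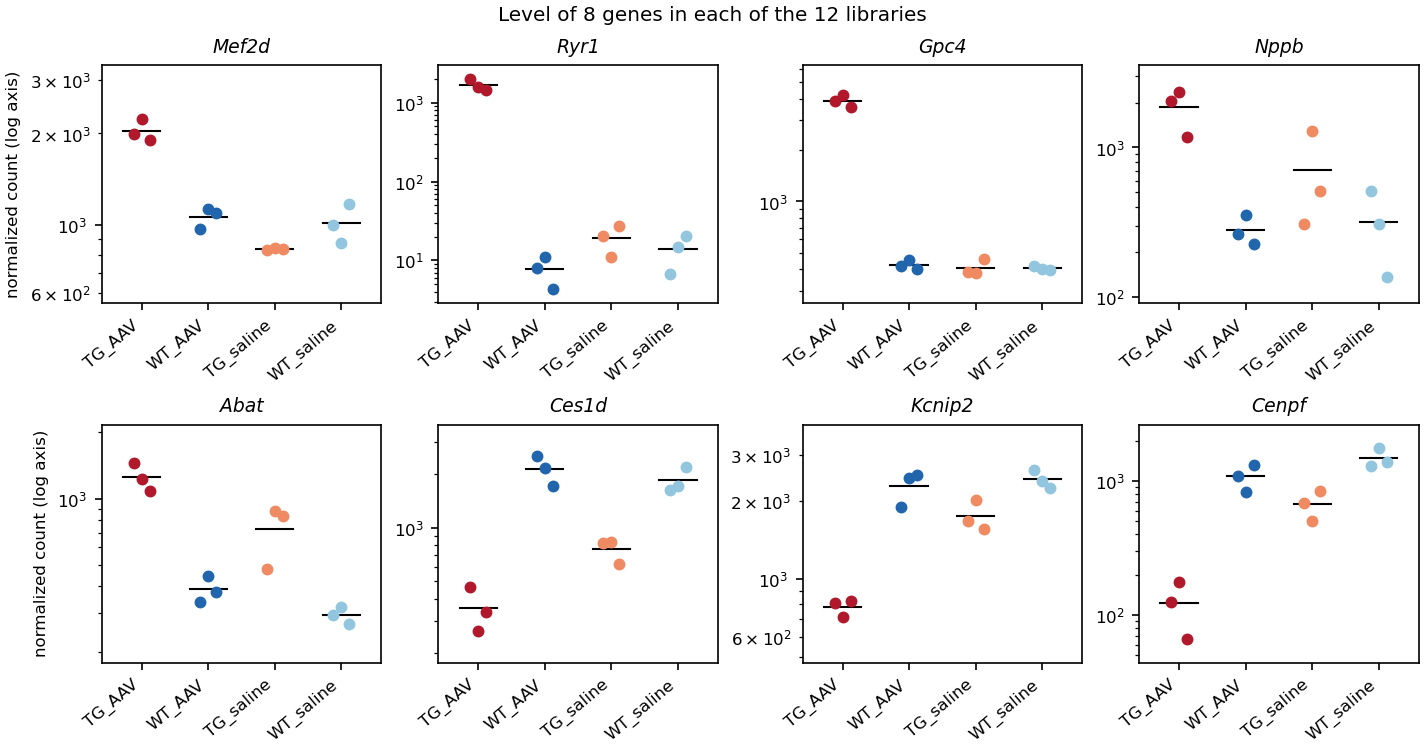
Normalized count (log axis) of 8 genes in every library of the 4 groups (points), with the group mean (bar). Mef2d, Ryr1, Gpc4 and Nppb lie higher and Ces1d, Kcnip2 and Cenpf lower in all TG_AAV hearts than in all WT_AAV hearts, and Abat and Ces1d also differ between TG_saline and WT_saline hearts.

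The genes that fell most included channels, a centromere protein and a lipid hydrolase. Cenpf, a kinetochore protein, had 125, 176 and 66.0 in TG_AAV, against 1089, 830 and 1322 in WT_AAV, a log2 change of -3.21 (SE 0.29, adjusted p = 2.43e-05). Kcnv2, a silent subunit that modifies potassium channels, had 35.0, 21.9 and 40.6 in TG_AAV, against 345, 244 and 323 in WT_AAV and changed by -3.21 (SE 0.37, adjusted p = 0.000112). Efnb3, the membrane ligand ephrin-B3, had 155, 209 and 134 in TG_AAV, against 1367, 1213 and 1033 in WT_AAV and changed by -2.86 (SE 0.17, adjusted p = 4.84e-07). All TG_AAV hearts lay below all WT_AAV hearts for these genes, by more than 4-fold between the nearest values. Their choice required that the groups did not overlap. Ces1d, a carboxylesterase that acts on stored lipid, had 463, 264 and 336 in TG_AAV, against 2514, 2148 and 1715 in WT_AAV and changed by -2.60 (SE 0.20, adjusted p = 5.66e-06).

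The water channel Aqp4 had 44.5, 39.9 and 8.75 in TG_AAV, against 267, 224 and 230.4 in WT_AAV (log2 change -3.20, adjusted p = 0.000386). Cubn, an endocytic receptor, changed by -2.97 and Lgals4, a galectin, by -2.76, the Lgals4 call being lost without the 3 wild-type libraries (adjusted p = 0.0621). The δ opioid receptor gene Oprd1 had 7 reads in the TG_AAV libraries together and 61 in the WT_AAV libraries (log2 change -3.02). Cdh20, a cadherin, had 13 and 71 reads in these groups (-2.57), and the predicted gene Gm10635 changed by -2.75. Scn10a, a sodium channel known from sensory neurons, had 13 reads in TG_AAV and 62 in WT_AAV (-2.58, adjusted p = 0.019). The Scn10a call was lost without TG_AAV 1 (adjusted p = 0.0581), WT_AAV 2 (0.0632) or WT_AAV 3 (0.0617), without the atrial-rich libraries (0.116) and without the 3 wild-type libraries (0.291).

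Many stress genes of heart muscle were higher in TG_AAV hearts. A list of stress and fetal genes, chosen like the other lists with earlier results of these data known, had 22 tested members. Of these, 13 rose (59.1%, against 10.8% of all genes tested) and 2 fell (9.09%, against 8.21%). The median log2 change was 0.89, against 0.0051 over all tested genes. The choice of members may have raised these shares. Nppb, which encodes the natriuretic peptide BNP, had 2036, 2368 and 1172 in TG_AAV, against 262, 352 and 225 in WT_AAV and rose by 2.69 (SE 0.50, adjusted p = 0.00258). Ankrd1, a stretch-responsive repressor of the Z-disc and nucleus, had 20882, 25365 and 23883 in TG_AAV, against 8902, 9468 and 7598 in WT_AAV and rose by 1.43 (SE 0.25, adjusted p = 0.00163). Every TG_AAV heart was above every WT_AAV heart for both, which the choice of these genes required.

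Rcan1, a calcineurin-responsive regulator of calcineurin, had 1642, 2365 and 1272 in TG_AAV, against 627, 686 and 529 in WT_AAV and rose by 1.48 (SE 0.19, adjusted p = 0.000198). Nmrk2, a nicotinamide riboside kinase of stressed muscle, had 81.7, 92.7 and 83.5 in TG_AAV, against 10.3, 7.10 and 21.4 in WT_AAV and rose by 2.77 (SE 0.38, adjusted p = 0.000389). Tnfrsf12a, the receptor of the cytokine TWEAK, rose by 2.13 and Uchl1, a ubiquitin hydrolase, by 1.81, while the ankyrin repeat protein gene Ankrd23 rose by 1.22. The LIM protein Fhl1 fell by 1.07 (SE 0.12, adjusted p = 0.000121), with 568, 624 and 673 in TG_AAV, against 1525, 1188 and 1225 in WT_AAV. Acta1, the skeletal α-actin of fetal and stressed heart, had 4979, 4976 and 8320 in TG_AAV, against 2426, 1649.9 and 1029.8 in WT_AAV and rose by 1.88 (SE 0.46, adjusted p = 0.0127), a call lost without TG_AAV 3 (adjusted p = 0.0596) or WT_AAV 3 (0.0501), without the atrial-rich libraries (0.133) and without the 3 wild-type libraries (0.145). Without the atrial-rich libraries 6 members rose, and Nppb and Ankrd1 were then not called (adjusted p = 0.146 and 0.0737). The natriuretic peptide gene Nppa, which atria also express, had 2863, 1835 and 3574 in TG_AAV, against 1737, 998 and 3589 in WT_AAV, so the groups overlapped (log2 change 0.53, adjusted p = 0.376).

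The abundant gene with the clearest rise was Gpc4, a heparan sulfate proteoglycan of the cell surface. Gpc4 had 3863, 4185 and 3589.9 in TG_AAV, against 421, 454 and 401 in WT_AAV, means of 3879 ± 298 in TG_AAV, against 425 ± 26.6 in WT_AAV (SD, n = 3 each), and a log2 change of 3.19 (SE 0.09, adjusted p = 3.40e-10). Col8a1, a short-chain collagen, had 1362, 1217 and 1651 in TG_AAV, against 617, 617 and 592 in WT_AAV and rose by 1.20 (SE 0.11, adjusted p = 3.34e-05).

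Of the genes of electrical excitation that passed, more were lower than higher. Of 24 tested potassium channel genes, 8 fell (33.3%, against 8.21% of all genes tested) and 1 rose (4.17%, against 10.8%), with a median log2 change of -0.30. The number lower was 8 without each of the 6 libraries in turn, and the number higher was 0 without TG_AAV 2, TG_AAV 3 or WT_AAV 1. Kcnip2, the subunit that shapes the transient outward current, had 809, 716 and 823 in TG_AAV, against 1893, 2447 and 2518 in WT_AAV and fell by 1.54 (SE 0.12, adjusted p = 7.89e-06). Kcnh2, the channel of the rapid delayed rectifier, had 789, 809 and 801 in TG_AAV, against 1536, 1771 and 1875 in WT_AAV and fell by 1.11 (SE 0.13, adjusted p = 0.00012). Every TG_AAV heart lay below every WT_AAV heart for both, which the choice of these genes required. Kcnk3, a background potassium channel, fell by 1.02 (SE 0.12, adjusted p = 0.000116).

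Of 22 genes of sodium channels, pumps and other excitability genes, 7 fell (31.8%, against 8.21% of all genes tested) and 3 rose (13.6%, against 10.8%). The skeletal muscle channels Scn4a and Clcn1 fell by 1.59 (SE 0.23, adjusted p = 0.000471) and 2.47 (SE 0.32, adjusted p = 0.000245). Scn4b, an auxiliary subunit, had 2178, 1695 and 2297 in TG_AAV, against 892, 555 and 210 in WT_AAV and rose by 2.11 (SE 0.38, adjusted p = 0.0022). Every TG_AAV heart lay above every WT_AAV heart, which the choice of Scn4b required.

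Calcium handling genes moved in both directions, with 6 of 36 higher (16.7%, against 10.8% of all genes tested) and 10 lower (27.8%, against 8.21%). With scaling by total reads 14 were higher and 10 lower. Ryr2, the cardiac calcium release channel, had 43016, 44139 and 42191 in TG_AAV, against 86405, 81209 and 80254 in WT_AAV and fell by 0.94 (SE 0.11, adjusted p = 0.000137), so that it changed in the direction opposite to Ryr1. Hrc, the histidine-rich protein of the sarcoplasmic reticulum, had 6250.2, 6324 and 5531 in TG_AAV, against 12148, 12790.3 and 10797 in WT_AAV and fell by 0.98 (SE 0.09, adjusted p = 3.37e-05). Pln, the inhibitor of the calcium pump, had 35002, 34489 and 32150.1 in TG_AAV, against 76252, 60595 and 52151 in WT_AAV and fell by 0.88 (SE 0.18, adjusted p = 0.00441), a call lost without the atrial-rich libraries (adjusted p = 0.081). Within the CaM kinase family Camk2a fell by 0.92 (SE 0.09, adjusted p = 3.34e-05) and Camk2b rose by 1.99 (SE 0.24, adjusted p = 0.000161), with 798, 689 and 734 in TG_AAV, against 199, 244 and 132 in WT_AAV for Camk2b. Casq1, the calsequestrin of skeletal muscle, had 576, 627 and 644 in TG_AAV, against 289, 258 and 129 in WT_AAV and rose by 1.53 (SE 0.26, adjusted p = 0.00173). Without the atrial-rich libraries 5 members rose and 4 fell.

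Many genes of energy metabolism were lower in TG_AAV hearts, and few were higher. Of 34 genes of fatty acid uptake and oxidation, 19 fell and none rose, with a median log2 change of -0.53. Of 29 genes of the TCA cycle and pyruvate entry, 14 fell and 1 rose (median -0.41). Of 46 genes of the respiratory chain and ATP synthase, 20 fell and none rose (median -0.33), and 45 of the 46 had a log2 change below 0. The shares that fell, 55.9%, 48.3% and 43.5%, compare with 8.21% of all tested genes called lower. These lists too were chosen with earlier results of these data known.

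Slc27a1, a fatty acid transport protein, had 1329, 1327 and 1125 in TG_AAV, against 2907, 2913 and 2789 in WT_AAV and fell by 1.19 (SE 0.17, adjusted p = 0.000443). Etfb, a subunit of the flavoprotein that takes electrons from fatty acid oxidation, had 2309.7, 2408 and 2326 in TG_AAV, against 4175, 4918 and 4386 in WT_AAV and fell by 0.93 (SE 0.09, adjusted p = 3.73e-05). Pnpla2, the lipase that opens stored triglyceride, had 1343, 1312 and 1257 in TG_AAV, against 2365, 2787 and 2558 in WT_AAV and fell by 0.98 (SE 0.16, adjusted p = 0.00136). None of these 3 genes had overlapping groups, which the choice of Slc27a1 required. Ech1, a mitochondrial enoyl-CoA isomerase, fell by 1.03 (SE 0.15, adjusted p = 0.000688), and Plin5, the lipid droplet protein, by 0.92 (SE 0.16, adjusted p = 0.00152). Dgat2, an enzyme of triglyceride synthesis outside the list, fell by 1.10 (SE 0.15, adjusted p = 0.000293).

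Sdha, the flavoprotein of succinate dehydrogenase, had 12672, 11512 and 10880.3 in TG_AAV, against 19039.7, 18419.9 and 15795 in WT_AAV and fell by 0.60 (SE 0.10, adjusted p = 0.00122). Cs, citrate synthase, had 9784, 9523 and 8948 in TG_AAV, against 16122, 15747 and 12175 in WT_AAV and fell by 0.63 (SE 0.12, adjusted p = 0.00306). Pdk2, a kinase that inhibits pyruvate dehydrogenase, fell by 0.68 (SE 0.11, adjusted p = 0.000921). In the respiratory chain Atp5d, a subunit of ATP synthase, had 3789, 3802 and 3617 in TG_AAV, against 5594, 5919 and 5259 in WT_AAV and fell by 0.58 (SE 0.08, adjusted p = 0.000324), and Ndufs7 of complex I fell by 0.55 (SE 0.09, adjusted p = 0.000897). Ckm and Ckmt2, the muscle and mitochondrial creatine kinases, fell by 0.98 (SE 0.14, adjusted p = 0.0004) and 0.63 (SE 0.13, adjusted p = 0.00598), the Ckmt2 call being lost without the atrial-rich libraries (adjusted p = 0.0632). Gamt, an enzyme of creatine synthesis, rose by 1.27 (SE 0.23, adjusted p = 0.00223).

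The size of these groups depended on the libraries used. The fatty acid genes called lower numbered 16 without the atrial-rich libraries, 28 without the 3 wild-type libraries, and 10, 12 and 26 without TG_AAV 3, WT_AAV 2 and WT_AAV 3. For the respiratory chain the counts were 7 and 43 in those omissions, 12 and 11 without TG_AAV 1 and 3, 12, 9 and 33 without WT_AAV 1, 2 and 3, and 31 with a replicate block. The TCA cycle had 9 and 23 in those omissions, and 8, 9 and 8 without TG_AAV 3, WT_AAV 1 and WT_AAV 2.

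Regulators of these pathways were also measured. Of 18 metabolic regulators 7 fell (38.9%, against 8.21% of all genes tested) and none rose, with a median of -0.27. The NAD-salvage enzyme Nampt had 2363, 2139 and 2001 in TG_AAV, against 4301, 3501 and 2709 in WT_AAV and fell by 0.67 (SE 0.15, adjusted p = 0.00749). The count of 7 was 4 without TG_AAV 1, TG_AAV 2 or WT_AAV 1, 2 without TG_AAV 3, 1 without WT_AAV 2 and 1 without the atrial-rich libraries. Of 26 glycolysis and glucose genes 6 fell (23.1%, against 8.21% of all genes tested) and 1 rose (3.85%, against 10.8%). Pfkfb1, an enzyme that sets the level of a glycolysis activator, had 51.1, 79.7 and 44.6 in TG_AAV, against 213, 195 and 301 in WT_AAV and fell by 2.02 (SE 0.25, adjusted p = 0.00018). Hk2, the muscle hexokinase, fell by 0.68 (SE 0.10, adjusted p = 0.000701). The number of these genes that fell was 2 without the atrial-rich libraries and 10 without the 3 wild-type libraries. Of 36 mitochondrial ribosome genes 4 fell, with 8 without the 3 wild-type libraries and 7 with a replicate block. The 4 are 11.1% of the list, close to the 8.21% of all genes tested that were lower.

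**Figure D3:**
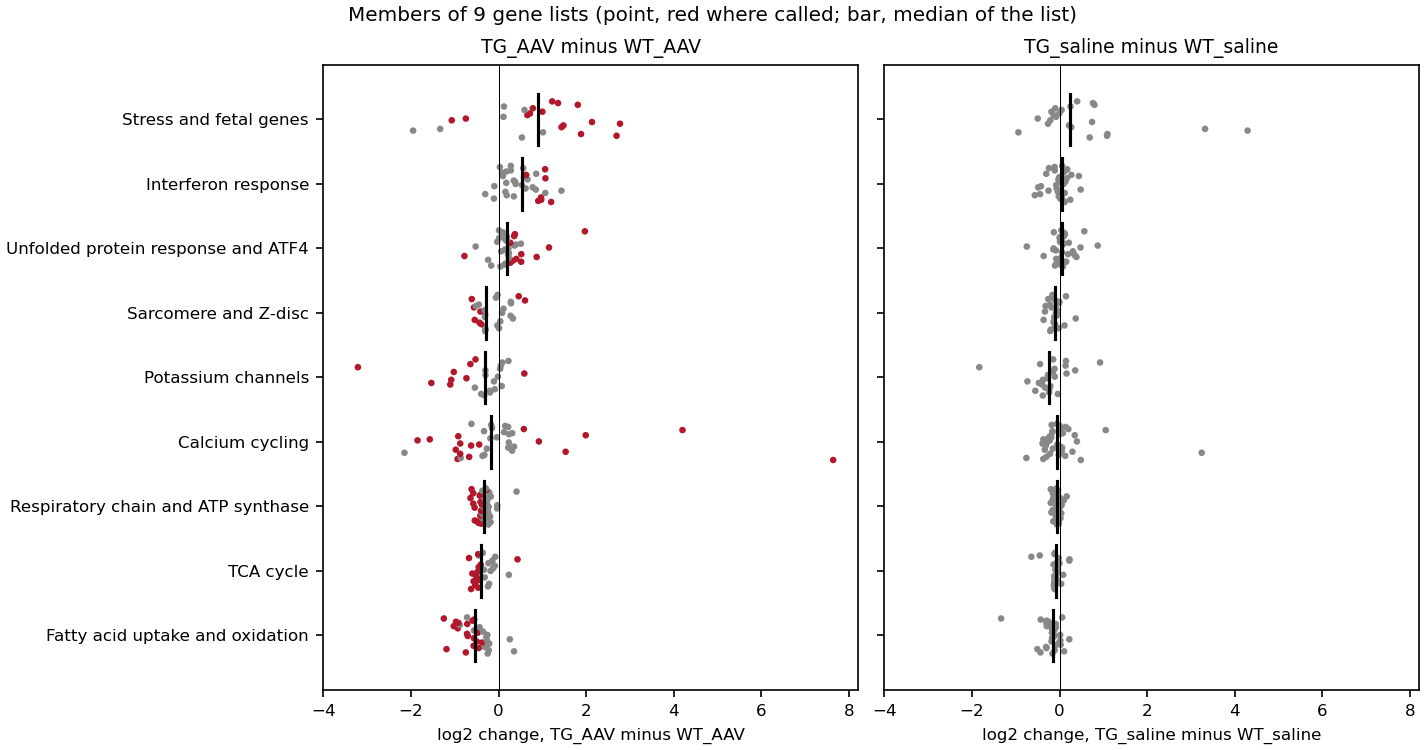
Log2 change of each tested member (points, red where called) of 9 gene lists, in TG_AAV minus WT_AAV hearts (left) and TG_saline minus WT_saline hearts (right), with the list median (bar). The fatty acid, TCA cycle and respiratory chain medians lie at -0.53, -0.41 and -0.33 on the left and at -0.16, -0.08 and -0.06 on the right, where no member of these 9 lists was called.

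Genes long tied to MEF2 did not move as a block. Of 29 known MEF2 target genes 3 rose (10.3%, close to the 10.8% of all genes tested) and 6 fell (20.7%, against 8.21%). The median log2 change was -0.21, and 6 rose and 4 fell with scaling by total reads. Xirp2, a Z-disc and intercalated disc protein, had 33367, 30286 and 33762 in TG_AAV, against 24156, 22018 and 14479 in WT_AAV and rose by 0.72 (SE 0.17, adjusted p = 0.0122), a call lost without the atrial-rich libraries (adjusted p = 0.147). Hrc and Ckm, given above, were the targets that fell with the smallest p. The count of 6 that fell was 3, 2 and 3 without TG_AAV 1, TG_AAV 3 and WT_AAV 2, and 2 without the atrial-rich libraries, where none rose, and 1 rose without WT_AAV 3. Among the MEF2 factors, Mef2a had 3028, 2920.4 and 2834 in TG_AAV, against 4220.1, 3253 and 3051 in WT_AAV (log2 change -0.25, adjusted p = 0.174) and Mef2c had 1661, 1527 and 1551 in TG_AAV, against 1774, 1518 and 1587 in WT_AAV (-0.04, adjusted p = 0.826). Neither passed the test, and the groups overlapped for Mef2c. Mef2b had 0 reads in the TG_AAV libraries and 5 in the WT_AAV libraries and was not tested.

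The letters of the MEF2 consensus were searched on both strands of RefSeq promoters that run from 250 bases before to 50 after each start. A match was present in 3.19% of all 32851 promoters. Of the tested genes with a promoter in the table, 243 of 9840 (2.47%) had a match. The share was 1.82% (20 of 1096) of the genes that rose and 3.7% (29 of 783) of those that fell. The looser core CTANNNNTAG, which overlaps that consensus, was in 3.69% of all promoters, in 391 of the 9840 tested genes (3.97%), in 3.28% of the genes that rose and in 3.96% of those that fell. Among changes over 2-fold, the consensus was in 1 of 246 genes that rose (0.407%) and 7 of 129 that fell (5.43%). The looser core was in 8 of the 246 (3.25%) and 11 of the 129 (8.53%). These counts are small, and the shares were not tested. A match is a description of the sequence only. No match to the MEF2 consensus lay in the stretches of Mef2d, Ryr1 and Gpc4 printed above. A gene that rose and 1 that fell are shown with their matches in capitals, as the 250 bases before the start on GRCm38.p6.
Xirp2 (chr2:67445752-67446001, plus strand): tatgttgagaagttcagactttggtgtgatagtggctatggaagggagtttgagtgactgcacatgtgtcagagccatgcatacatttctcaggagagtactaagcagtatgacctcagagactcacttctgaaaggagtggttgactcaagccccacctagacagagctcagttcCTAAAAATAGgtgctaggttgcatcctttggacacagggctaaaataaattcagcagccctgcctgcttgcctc
Clcn1 (chr6:42286435-42286684, plus strand): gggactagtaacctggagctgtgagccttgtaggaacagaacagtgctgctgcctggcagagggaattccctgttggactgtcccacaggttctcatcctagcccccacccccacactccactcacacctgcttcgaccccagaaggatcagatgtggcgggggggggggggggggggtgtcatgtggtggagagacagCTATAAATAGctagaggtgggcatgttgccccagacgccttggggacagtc
The match begins 74 bases before the start in Xirp2 and 51 bases before it in Clcn1, the chloride channel of skeletal muscle, which had 62.7, 34.9 and 24.7 in TG_AAV, against 168, 238 and 243 in WT_AAV.

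Contractile genes moved in both directions. Of 27 sarcomere and Z-disc genes 6 fell and 2 rose, with a median of -0.30, and 9 fell without the 3 wild-type libraries, 2 without the atrial-rich libraries, 3 without TG_AAV 3 and 10 without WT_AAV 3. The 6 and 2 were 22.2% and 7.41% of the list, against 8.21% and 10.8% of all genes tested. With scaling by total reads 7 rose and 6 fell. The 2 that rose were 1 without TG_AAV 2, WT_AAV 2 or WT_AAV 3, and 0 without the atrial-rich libraries. Cmya5, a Z-disc protein, had 24042, 19976 and 18725 in TG_AAV, against 34199.7, 33285 and 28314 in WT_AAV and fell by 0.61 (SE 0.12, adjusted p = 0.00354). The filamin Flnc had 13152, 15885 and 13083 in TG_AAV, against 10286, 10408 and 9852 in WT_AAV and rose by 0.46 (SE 0.09, adjusted p = 0.0045), a call lost without the atrial-rich libraries (adjusted p = 0.0915). The cardiac myosin heavy chain Myh6, whose promoter drives the transgene, had 343745, 362613 and 323460 in TG_AAV, against 430486, 415774 and 416448 in WT_AAV, with a log2 change of -0.30 that did not pass (adjusted p = 0.322) although all TG_AAV hearts lay below all WT_AAV hearts. Of 14 genes known from skeletal muscle 5 were higher (35.7%, against 10.8% of all genes tested) and 1 lower (7.14%, against 8.21%). Besides Ryr1 and Casq1 they included Tnnt1, the slow troponin T, with 214, 327 and 212 in TG_AAV, against 86.2, 129.9 and 115 in WT_AAV (1.17), and Mybpc2, the fast myosin-binding protein C, with 523, 530.1 and 743 in TG_AAV, against 301, 249 and 163 in WT_AAV (1.36). The Tnnt1 call was lost without the atrial-rich libraries (adjusted p = 0.0518) and the Mybpc2 call without the 3 wild-type libraries (0.0631). Without the atrial-rich libraries, and without the 3 wild-type libraries, 3 of these were higher.

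**Figure D4:**
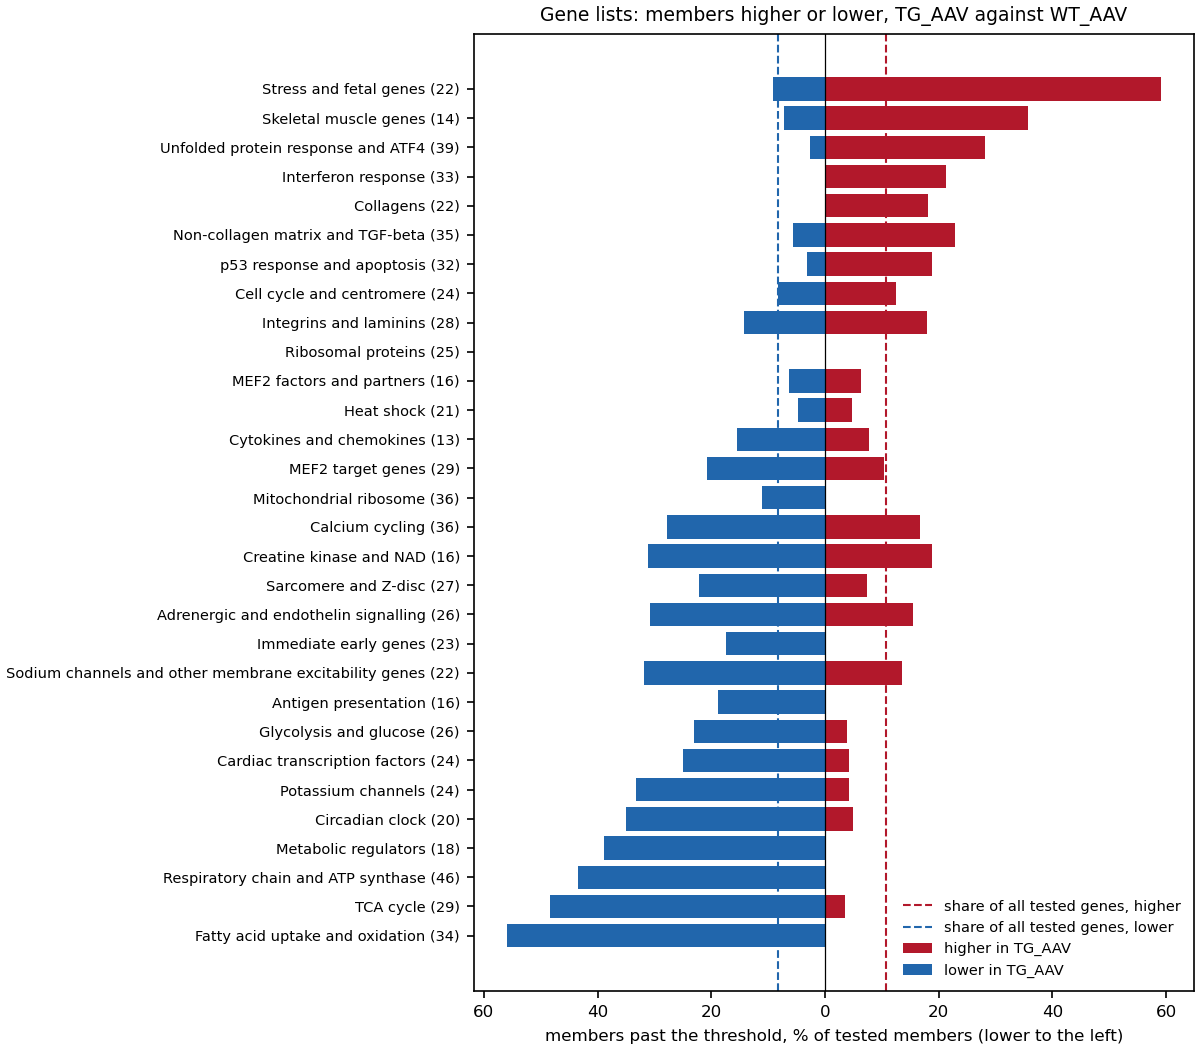
Share of the tested members of each list drawn (number in brackets) that were higher (right, red) or lower (left, blue) in TG_AAV than in WT_AAV hearts. Dashed lines give the shares over all tested genes (10.8% and 8.21%). The cell type marker lists and some other lists are not drawn. Among the lists drawn, the stress list reaches furthest to the right, and the fatty acid, TCA cycle and respiratory chain lists furthest to the left. Lists and members were chosen with earlier results of these data known.

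Some genes of the extracellular matrix and of cell stress were higher. Of 22 collagen genes 4 rose (18.2%, against 10.8% of all genes tested) and none fell, and of 35 other matrix and TGF-β genes 8 rose (22.9%) and 2 fell. The fibrillar collagens did not pass, with log2 changes of -0.17 for Col1a1 and 0.01 for Col3a1. Timp2, an inhibitor of matrix proteases, rose by 0.47 (SE 0.08, adjusted p = 0.00169), and the growth factor Tgfb3 had 409, 485 and 452 in TG_AAV, against 269, 259.8 and 290.4 in WT_AAV and rose by 0.71 (SE 0.13, adjusted p = 0.00203). The matrix count of 8 was 4 without TG_AAV 3, 3 without WT_AAV 2, where 4 fell, and 3 without the atrial-rich libraries.

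Of 33 interferon-response genes 7 rose (21.2%, against 10.8% of all genes tested) and none fell, and 30 had a log2 change above 0 (median 0.53). Ifit2 had 579, 548 and 611 in TG_AAV, against 239, 379 and 325 in WT_AAV and rose by 0.90 (SE 0.17, adjusted p = 0.00256), a call lost without the atrial-rich libraries (adjusted p = 0.131). Lgals3bp, a secreted galectin ligand, had 544, 577 and 807 in TG_AAV, against 243, 307 and 372 in WT_AAV and rose by 1.06 (SE 0.20, adjusted p = 0.00272). The interferon count was 16 with scaling by total reads, 3 without TG_AAV 3 or WT_AAV 1 and 1 without the atrial-rich libraries. The 16 genes of antigen presentation included 3 that fell, all of MHC class II, and none that rose, and none passed without TG_AAV 1 or TG_AAV 3 or without the atrial-rich libraries, and 1 without WT_AAV 2. The 3 that fell were 18.8% of the antigen presentation genes, against 8.21% of all genes tested. Of 39 genes of the unfolded protein response and the ATF4 pathway 11 rose (28.2%) and 1 fell (2.56%), and 22 rose with scaling by total reads. Mthfd2, a mitochondrial folate enzyme and ATF4 target, had 81.0, 53.8 and 115 in TG_AAV, against 27.6, 19.3 and 13.9 in WT_AAV and rose by 1.97 (SE 0.32, adjusted p = 0.00111), and the chaperone partner Sdf2l1 rose by 0.87 (SE 0.16, adjusted p = 0.00301). The main chaperone of that pathway, Hspa5, had a log2 change of 0.04 and did not pass. The count of 11 was 5, 6 and 6 without TG_AAV 1, 2 and 3, 7 without WT_AAV 3, 4 without the atrial-rich libraries and 5 without the 3 wild-type libraries.

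Of 32 genes of the p53 response and apoptosis 6 rose (18.8%, against 10.8% of all genes tested) and 1 fell (3.12%, against 8.21%). Phlda3, a p53 target, had 228, 211 and 277 in TG_AAV, against 119.6, 116 and 145 in WT_AAV and rose by 0.91 (SE 0.14, adjusted p = 0.001), and the survival gene Bcl2 rose by 0.89 (SE 0.16, adjusted p = 0.00202). The count of 6 was 3 without TG_AAV 3 and 2 without the atrial-rich libraries. Of 24 cell cycle genes 3 rose (12.5%) and 2 fell (8.33%), shares close to the 10.8% and 8.21% of all genes tested. Without each of the 6 libraries in turn 1 fell. The D cyclins Ccnd3 and Ccnd2 rose by 0.75 (SE 0.10, adjusted p = 0.000227) and 0.81 (SE 0.13, adjusted p = 0.00115), the Ccnd2 call being lost without the atrial-rich libraries (adjusted p = 0.121), and the proliferation marker Mki67 had a log2 change of 0.16 and did not pass. Of 21 heat shock genes 1 rose, Hspa2, and 1 fell, Hspb6, each 4.76% of the list, against 10.8% and 8.21% of all genes tested. Without TG_AAV 3 Hspa2 was not called (adjusted p = 0.0575), without WT_AAV 1 as many as 8 rose, and without the 3 wild-type libraries 8 fell.

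Scaling by total reads moved other counts too. It gave 5 glycolysis genes higher and 5 lower, 10 genes of the p53 response higher, 5 cell cycle genes higher and 1 lower, 5 heat shock genes higher and 1 lower, and 2 metabolic regulators lower.

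Markers of the cell types in ventricle were summed to see what the tissue samples held. The 10 ventricular muscle markers summed to 1655307 to 1780759 in TG_AAV and 2007495 to 2289703 in WT_AAV, so the groups did not overlap, and 4 of the 10 were called lower, 1 of them without the atrial-rich libraries. In saline-injected hearts these sums were 1810696 to 1986795 in TG_saline and 2080045 to 2303692 in WT_saline, which did not overlap either. In bulk tissue fewer cells of a type and less RNA per cell cannot be told apart. Endothelial markers summed to 32343 to 37657 in TG_AAV and 39718 to 44915 in WT_AAV, with 3 of 16 called lower and all 16 below 0. The number lower was 1 without TG_AAV 1, TG_AAV 2 or WT_AAV 2, 8 without WT_AAV 1, and 0 without TG_AAV 3, without the atrial-rich libraries or with scaling by total reads. Fibroblast markers summed to 44094 to 46364 in TG_AAV and 31478 to 45151 in WT_AAV, with 1 of 13 called higher, 3 without WT_AAV 1, 4 with scaling by total reads, and 0 without TG_AAV 1, TG_AAV 3 or WT_AAV 2. Macrophage markers summed to 4569 to 4967 in TG_AAV and 4016 to 5381 in WT_AAV, with 1 of 17 called higher, a call lost without any 1 of the 6 libraries. Mural cell markers summed to 35358 to 37792 in TG_AAV and 38068 to 41653 in WT_AAV, which did not overlap, with 1 of 12 called lower. The atrial markers had 2 of 8 called lower, Kcnj3 and Clu, and their sums overlapped between groups. The atrial marker Bmp10 was at 0 in all 3 TG_AAV libraries and in WT_AAV 1 and 2. Adipocyte markers summed to 632 to 724 in TG_AAV and 463 to 759.8 in WT_AAV, with 1 of 6 higher and 1 lower. The number lower was 5 without WT_AAV 2, 3 with a replicate block, 4 in edgeR and 0 without the atrial-rich libraries. Among them Adipoq, at 6.56, 0.996 and 1.59 in TG_AAV, against 46.0, 0 and 66.4 in WT_AAV, was highest in the atrial-rich WT_AAV 1 and WT_AAV 3. Of the lymphocyte and neutrophil markers none passed the filter, and 5 of those 11 were at or under the level of 3 reads in each of the 6 libraries. Of 7 erythrocyte markers 6 were at or under that level in each library. Of the Schwann cell and neuron markers 1 rose and 2 fell, with 3 of the 10 at or under that level in each library. Their sum was higher in TG_AAV, at 497 to 635, against 384 to 481 in WT_AAV, which did not overlap. Of the epicardial markers 1 fell, a call lost without the atrial-rich libraries (adjusted p = 0.217) and without TG_AAV 1, 2 or 3 or WT_AAV 2 or 3 (0.0702 to 0.128). The skeletal muscle markers summed to 14875 to 18767 in TG_AAV and 17272 to 24721 in WT_AAV, which overlapped. Among them Myh4 was at or under 3 reads in each library. Over all genes tested, 10.8% were called higher and 8.21% lower. The part of these cell types in the changes was not tested.

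The transgene without the vector gave far fewer calls, and most genes called with the vector had the same sign without it. In TG_saline against WT_saline hearts 13 genes passed, or 0.0998% of those tested, with 1463 at an unadjusted p under 0.05, and edgeR called 36 and DESeq2 203. Myl7 had 728, 4.42 and 258 in TG_saline, against 8.88, 1.15 and 5.43 in WT_saline, so that TG_saline 1 and TG_saline 3 held atrial transcripts that the WT_saline libraries nearly lacked, and both stayed in when the 3 atrial-rich libraries were left out. With a term for Myl7 3 genes passed in saline-injected hearts, and the part of atrial transcripts in this comparison was not otherwise tested. All 13 were also called in TG_AAV against WT_AAV in the same direction, 11 higher and 2 lower. These comparisons share no library. Of the 1403 genes higher in TG_AAV, 1214 (86.5%) had a log2 change above 0 in saline-injected hearts, with a median of 0.57 with the vector and 0.17 with saline. Of the 1070 lower genes 968 (90.5%) were below 0 in saline-injected hearts, with medians of -0.58 and -0.20. Among genes not called, 63.7% had the same sign. Across the 13027 genes, which are not independent replicates, Pearson's r between both effects was 0.42 and Spearman's rank correlation 0.48.

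Rab40b, a small GTPase, had 190.4, 145 and 165 in TG_AAV, against 52.9, 55.8 and 31.1 in WT_AAV. In saline-injected hearts it had 103, 101 and 88.6 in TG_saline, against 26.6, 30.9 and 28.2 in WT_saline, and its log2 change was 1.86 with the vector and 1.73 (SE 0.20, adjusted p = 0.00687) with saline. Abat, which breaks down the transmitter GABA, had 1449.9, 1224 and 1079 in TG_AAV, against 337, 445 and 375 in WT_AAV, with 477, 882 and 831 in TG_saline, against 296, 322 and 269 in WT_saline, for log2 changes of 1.69 and 1.25. The Wnt receptors Fzd9 and Fzd3 changed by 2.20 and 1.59 with the vector and by 1.80 and 1.14 with saline. Prkcz, an atypical protein kinase C, changed by 2.11 and 1.37, and the sorting receptor Sorl1 by 1.38 and 0.71. Lower in both were Ces1d (-2.60 and -1.27) and Pfkfb1 (-2.02 and -1.53). The saline calls of all 8 were lost without TG_saline 2, with adjusted p from 0.0694 to 0.139, and no gene was then called, while that of Rab40b held without each other library in turn. The number called in saline-injected hearts was 2 without TG_saline 3 or WT_saline 3, 35 without TG_saline 1, 40 without WT_saline 2, and 3 to 34 without 1 of the vector-injected libraries, which share in the estimate of the spread.

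The transgene effect itself differed between vector-injected and saline-injected hearts for 112 genes, or 0.86%, of which 111 were among the 2473, and 1530 genes had an unadjusted p under 0.05. Of the 112, 80 had the more positive effect with the vector. With a term for Xist, which was high in TG_saline 1 and in WT_saline 1 and 3, 161 genes were called. Gpc4 stood at 389, 380 and 461 in TG_saline, against 419.7, 402 and 398 in WT_saline, a log2 change of 0.01 with saline, and the difference of effects was 3.18 (SE 0.13, adjusted p = 3.15e-08). Pdzd4 had a difference of 3.89 (SE 0.23, adjusted p = 1.59e-06), Ryr1 of 7.15 (SE 0.57, adjusted p = 2.82e-05) and Col22a1 of 5.03 (SE 0.44, adjusted p = 7.32e-05). For Mef2d it was 1.20 (SE 0.15, adjusted p = 0.00161). Among genes that fell, Efnb3 had a difference of -2.50 (SE 0.24, adjusted p = 0.000154), with 1049.7, 772 and 859 in TG_saline, against 1345, 1036 and 1074 in WT_saline. The count of 112 was 57, 39 and 42 without TG_AAV 1, 2 and 3, 72 without WT_AAV 2, and 54, 73 and 69 without TG_saline 1, 2 and 3. It was 63, 52 and 193 without WT_saline 1, 2 and 3, and 37 without the atrial-rich libraries, where the Mef2d difference had an adjusted p of 0.0562.

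**Figure D5:**
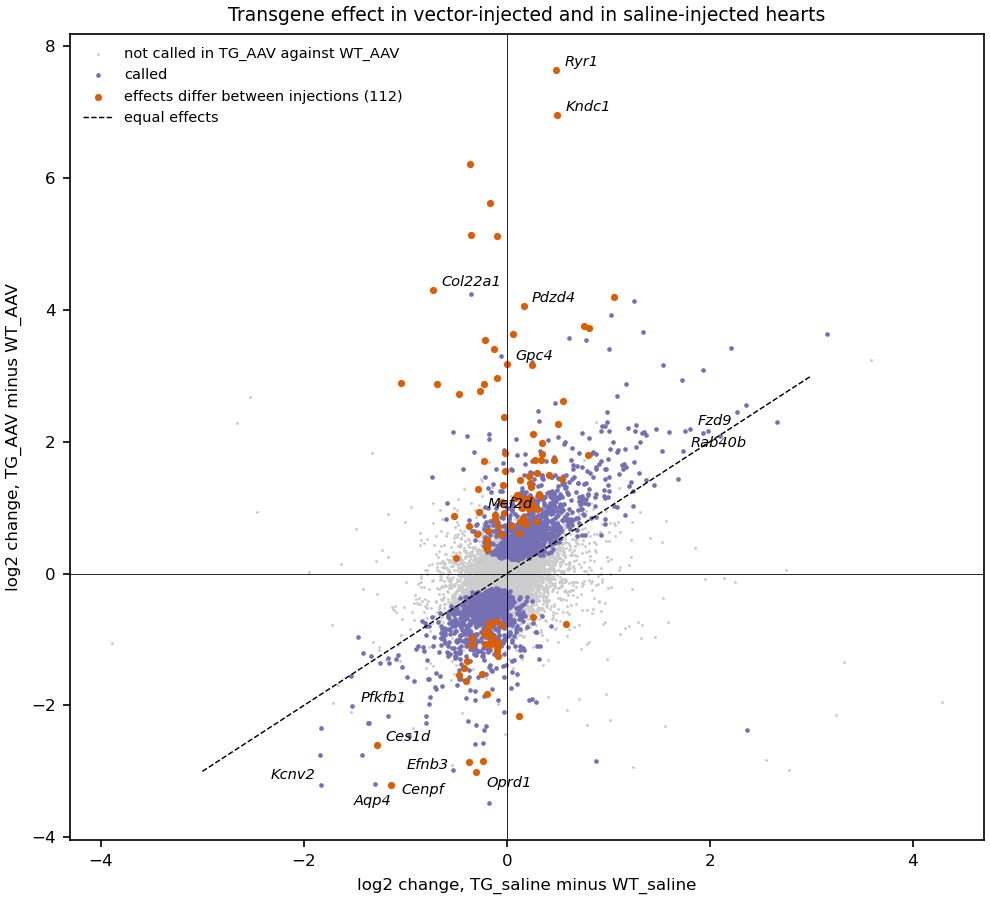
Log2 change of each gene in TG_AAV minus WT_AAV hearts (vertical) against that in TG_saline minus WT_saline hearts (horizontal), with equal effects on the dashed line and the 112 genes whose effects differ in orange. Ryr1, Kndc1 and Gpc4 lie between 0 and 0.50 on the horizontal axis and above 3 on the vertical axis, whereas Rab40b lies near the dashed line.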

How the data were processed

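Total RNA was sequenced from 12 libraries of mouse cardiac ventricle, 3 in each of 4 groups, which were assigned from the labels. The authors deposited 1 table of normalized counts, a signal that is each gene's read count divided by a size factor per library. Bowtie2 2.0, DESeq2 and mm9 are named in the submitters' processing notes. No source used here gives the counting tool, annotation, strand setting or filters, so overlapping and antisense genes cannot be told apart. All positive values were whole multiples of 1 read within 0.01, which recovered the reads. Of 24390 genes, 5583 were at 0 in every library.

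The log2(normalized count + 1) values were compared with limma 3.58.1 (R 4.3.3), with a mean-variance trend, 4 group means fitted to 12 libraries, two-sided tests, Benjamini-Hochberg adjustment and a threshold of 0.05. A fold change on this scale understates the change of low genes. The genes tested had a mean of 10 or more over the 6 vector-injected libraries. The fit was tested on simulated data. The alternatives used edgeR 4.0.16 and DESeq2 1.42.0 on the recovered reads, other scalings, filters and pseudocounts, terms for Xist and Myl7, libraries left out and a replicate block. Same-numbered vector-injected libraries deviated together (r of 0.268, 0.208 and 0.322). TG_AAV 1 and WT_AAV 1 both held atrial transcripts, as did WT_AAV 3, and TG_AAV 3 and WT_AAV 3 were both high in Xist. Whether the numbers mark pairs was not tested, and the main fit paired no libraries. The labels give the numbers and do not say what they share. Same-numbered saline-injected libraries had r of 0.139, 0.0532 and -0.0647.

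Named genes were the largest changes past the threshold with groups that did not overlap, overall and among genes with a mean of 1000 or more, those called in both transgene comparisons, those whose effects differed, and the members of each list with the smallest p. A few others (Camk2b, Myh6, Mef2a, Mef2c, Nppa, Hspa5, Mki67, Col1a1, Col3a1 and Adipoq) were named after their values were seen. Members and lists were chosen with earlier results of these data known. Some genes that the rules pick are not reported here, and 27 symbols that had turned into dates, 20 of them tested, are not named. Promoters were from RefSeq on GRCm38.p6, matched by symbol. Figures were drawn with matplotlib 3.10.9, and python 3.11.15 with scipy 1.17.1 computed the intervals.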

Additional observations from a re-analysis of the deposited data

Results flagged for a closer look

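For 21 of the genes named for their change, the transgene effect differed between vector-injected and saline-injected hearts, by limma's test of the difference between both effects. Values are that difference on the log2 scale, vector minus saline.

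The effect was more positive with the vector for Mef2d (1.20), Ryr1 (7.15), Kndc1 (6.46), B3gat1 (6.58), Clstn3 (5.78), Atp1b4 (5.49), Ccno (5.22), Col22a1 (5.03), Itpka (3.14), Pdzd4 (3.89), Gpc4 (3.18), Rcan1 (1.26) and Col8a1 (1.09). The adjusted p ran from 3.15e-08 for Gpc4 to 0.0435 for Rcan1. Itpka, with a log2 change of 1.05 in saline-injected hearts, lay above 0 in both injections, and Gpc4 had 0.01 with saline. Without the atrial-rich libraries the Col8a1 difference was not called (adjusted p = 0.127), nor was that of Mef2d (0.0562). Leaving out 1 of 10 libraries ended the Rcan1 call (adjusted p of 0.0638 to 0.112). The Itpka call ended without TG_AAV 2 (0.067) or TG_AAV 3 (0.0536), the Atp1b4 call without TG_AAV 1 (0.0703) or TG_AAV 2 (0.0797), and the Ccno call without any 1 of 6 libraries (0.0501 to 0.075).

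The effect was more negative with the vector for Cenpf (-2.07), Oprd1 (-2.72), Efnb3 (-2.50), Ces1d (-1.33), Kcnip2 (-1.06), Pde1c (-1.28), Abca4 (-2.29) and Whrn (-1.63). Efnb3 had the smallest adjusted p of these, 0.000154, and Oprd1 the highest, 0.0495. With saline the log2 change was -1.14 for Cenpf, -1.27 for Ces1d and 0.13 for Abca4. Leaving out 1 of 8 libraries for Cenpf, 10 for Oprd1, 8 for Ces1d or 10 for Whrn ended the call, with adjusted p of 0.0531 to 0.0977, 0.0655 to 0.131, 0.0882 to 0.122 and 0.0588 to 0.104. The Abca4 call ended without TG_AAV 1 (adjusted p = 0.0531), TG_AAV 2 (0.0671), TG_saline 1 (0.0589) or WT_saline 2 (0.0518), the Pde1c call without TG_saline 1 (0.0527) and the Kcnip2 call without the 3 wild-type libraries (0.0559).

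The differences of Ryr1, Col22a1, Pdzd4, Gpc4, Clstn3 and Efnb3 passed in every alternative tried. In edgeR those of Kndc1 (adjusted p = 0.988), B3gat1 (0.227), Atp1b4 (0.384) and Ccno (0.0838) did not pass, and these are genes with 0 to 6 reads in the WT_AAV libraries together.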

How the results depend on the processing

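Of the 2473 genes called in TG_AAV against WT_AAV, those fitted kept their direction in each alternative except quantile normalization, where 2469 did. Most of this was fixed in advance. For the 2448 whose groups did not overlap, leaving out libraries could not turn the direction. Filters, robust moderation, the fit of the 6 libraries alone and the replicate blocks leave each log2 change as it is. A filter at a mean of 50 fitted 2235 of them, and one over 12 libraries 2455. Leaving out 1 library gave 1455 to 2995 calls, with 853 to 1629 higher and 602 to 1366 lower. Without the atrial-rich libraries 713 genes were called (405 higher, 308 lower), without the 3 wild-type libraries 935 were higher, and scaling by total reads gave 2940 higher and 628 lower. A replicate block, which pairs same-numbered libraries of all 4 groups, gave 2820 calls, and one on the vector-injected libraries alone 2496, of which 2096 were among the 2473. For TG_saline against WT_saline the 13 calls became 36 with TMM, 91 with total reads, 3 in a fit of the 6 libraries alone, 38 with robust moderation, 32 with the replicate block, 20 with a term for Xist, 3 with one for Myl7, 4 without the atrial-rich and 28 without the 3 wild-type libraries, 36 in edgeR, 203 in DESeq2 and 0 to 40 with 1 library left out. The 112 differences between the effects became 41 with a term for Myl7, 37 without the atrial-rich and 260 without the 3 wild-type libraries, 277 in DESeq2, 158 with the replicate block and 39 to 193 with 1 library left out. Omissions leave fewer samples to test with. Otherwise the cause was not tested. Of the 172 called genes that the naming rule picks, not all of them given above, 132 held with each of the 12 libraries left out in turn, 74 were lost without the atrial-rich libraries and 25 without the 3 wild-type libraries. Tnnt2, at -0.40 on the log2 scale, turned to 0.072 with quantile normalization. The replicate block over all 4 groups ended 1 of these calls, and the block on the vector-injected libraries alone ended 5. Depth limits low genes such as Kndc1 and B3gat1, with 1 and 0 WT_AAV reads.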

Other observations

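Genes of adrenergic and endothelin signalling were measured with 4 of 26 higher and 8 lower in TG_AAV hearts, and 1 higher and 3 lower without the atrial-rich libraries. The 4 and 8 were 15.4% and 30.8% of the list, against 10.8% and 8.21% of all genes tested. The number lower was 4 without TG_AAV 3. Edn3, which encodes the peptide endothelin-3, had 365, 338 and 355 in TG_AAV, against 46.0, 60.9 and 8.57 in WT_AAV and rose by 3.54 (SE 0.53, adjusted p = 0.000668). All TG_AAV hearts were several times above the highest WT_AAV heart. In saline-injected hearts it had 19.3, 9.94 and 17.2 in TG_saline, against 5.55, 10.3 and 9.77 in WT_saline. Adra1a, the α1A-adrenergic receptor, had 284, 203 and 262 in TG_AAV, against 799, 919 and 574 in WT_AAV and fell by 1.60 (SE 0.19, adjusted p = 0.000164). Dbh, the enzyme that makes noradrenaline, had 9.48, 5.98 and 5.57 in TG_AAV, against 47.1, 39.6 and 28.9 in WT_AAV and fell by 2.31 (SE 0.32, adjusted p = 0.0004). The groups did not overlap for any of these 3 genes.

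Of 20 circadian clock genes 7 fell (35.0%, against 8.21% of all genes tested) and 1 rose (5.0%, against 10.8%). Dbp, a clock output factor, had 747, 561 and 899.9 in TG_AAV, against 1597, 1092 and 1942 in WT_AAV and fell by 1.05 (SE 0.23, adjusted p = 0.00633), a call lost without the atrial-rich libraries (adjusted p = 0.274), where 1 clock gene fell. Hlf, another output factor, fell by 0.60 (SE 0.12, adjusted p = 0.00359). Of 23 immediate early genes 4 fell (17.4%, against 8.21% of all genes tested) and none rose. Ier2 had 70.0, 64.8 and 77.2 in TG_AAV, against 159.8, 138 and 140.4 in WT_AAV and fell by 1.04 (SE 0.13, adjusted p = 0.000245), and 21 of the 23 had a log2 change below 0. The number of immediate early genes that fell was 8 in edgeR, 7 without WT_AAV 2, 1 without the atrial-rich libraries and 17 without the 3 wild-type libraries. Labels gave no time of day.

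Of 28 integrin and laminin genes 5 rose (17.9%, against 10.8% of all genes tested) and 4 fell (14.3%, against 8.21%). The counts were 9 and 6 with a replicate block and 14 and 3 with scaling by total reads, and 1 fell without TG_AAV 3. Lama2, the main laminin chain of muscle, had 6508, 7026 and 6565 in TG_AAV, against 5158, 4815 and 5030.3 in WT_AAV and rose by 0.42 (SE 0.07, adjusted p = 0.00117).

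Myh7, the slow β-myosin heavy chain, had 15836, 18132 and 4161 in TG_AAV, against 19366, 3117 and 2411 in WT_AAV, with 2593, 18561 and 2669 in TG_saline, against 18852, 2043 and 23559.7 in WT_saline. Myh2, a fast skeletal myosin chain, had 944, 996 and 0.796 in TG_AAV, against 1157, 3.04 and 2.14 in WT_AAV, with 2.90, 1072 and 1.81 in TG_saline, against 1087, 1.15 and 1272 in WT_saline. The same libraries were high in both genes in all 4 groups, and neither passed the test. Myosin heavy chain genes are related in sequence, and whether reads were split among them was not tested, so these values are uncertain.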
